A study of Mus musculus with 10 samples.

Results

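To ask where trimethylated lysine 9 of histone H3 (H3K9me3) stood in hepatocytes with and without Arid1a, the 2 H3K9me3 peak lists of the study were compared. The members were all H3K9me3 summits on the 19 autosomes, 141657 from the Arid1a wild-type (WT) cells and 131430 from the knockout (KO) cells, together 273087 of the 808182 autosomal summits in the 8 deposited lists. A summit was called kept where the other genotype had a summit at most 1 kb away, and otherwise WT only or KO only. A summit with −log10 q of at least 5 was called strong, q being the false discovery rate that the peak caller gave it. The lists held 5787 strong WT and 6242 strong KO summits.

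Both lists came from AB17, hepatocytes isolated from a C57BL/6 mouse whose Arid1a alleles were floxed (Arid1a fl/fl) and immortalized with SV40 large T antigen and activated H-Ras. Infection with Ad-GFP left Arid1a in place (WT), and infection with Ad-Cre knocked it out by removing 1 exon (KO, Arid1a-/-). Both groups therefore carried the transforming genes, the floxed background and an adenovirus, and both came from a single line. Each genotype had 1 H3K9me3 library, so no test between genotypes was possible and no p-value is given. The lists give no read depth. The number of summits also follows depth and antibody efficiency, and these cannot be told apart from genotype. Intervals below are 95% Wilson intervals of a share and cover counting error only. Peak lists hold no expression, so neither the loss of Arid1a nor the hepatocyte identity could be checked in them.

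H3K9me3 is written by Setdb1, Suv39h1 and related enzymes and bound by the heterochromatin protein Cbx5 and its relatives. It marks satellite repeats, retrotransposons, clusters of KRAB zinc finger genes, the silent allele of imprinted control regions and clustered receptor genes, and it is usually scarce at CpG-rich promoters of active genes. Arid1a is a subunit of the SWI/SNF complex, whose ATPase Brg1 (Smarca4) moves nucleosomes at promoters and enhancers.

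The reference sequence under 9 of the named summits is shown as examples, and these are not typical of their class. Of all kept WT summits 56.9% lay on soft-masked bases and 7.19% had 20 or more CpGs in 501 bp, against 31.3% and 5.41% of WT-only summits. Each run below is 101 bases of GRCm38 centred on the summit, plus strand, in lower case with every CpG as CG in capitals. The first 4 were among the 5 strongest kept summits.
Kept, intergenic, nearest coding gene Axin2, chr11:109011832-109011932: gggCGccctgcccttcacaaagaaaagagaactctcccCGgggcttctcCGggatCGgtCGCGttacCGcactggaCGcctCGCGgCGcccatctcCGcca
Kept, intron of Filip1l and Cmss1, chr16:57391404-57391504: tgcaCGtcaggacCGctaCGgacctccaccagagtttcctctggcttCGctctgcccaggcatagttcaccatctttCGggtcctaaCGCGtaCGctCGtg
Kept, intergenic, nearest coding gene Gm8797, chr3:5860521-5860621: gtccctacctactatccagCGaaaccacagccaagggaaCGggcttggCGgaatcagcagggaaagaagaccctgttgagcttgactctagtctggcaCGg
Kept, within Gm10801, chr2:98663810-98663910: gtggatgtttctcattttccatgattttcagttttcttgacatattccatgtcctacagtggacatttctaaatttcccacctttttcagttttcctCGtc
WT only, 103 bp from the start of Hnrnpab, chr11:51606694-51606794: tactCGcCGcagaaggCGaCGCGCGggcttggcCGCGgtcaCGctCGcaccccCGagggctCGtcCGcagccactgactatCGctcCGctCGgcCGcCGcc
WT only, intron of Fhit, chr14:11047483-11047583: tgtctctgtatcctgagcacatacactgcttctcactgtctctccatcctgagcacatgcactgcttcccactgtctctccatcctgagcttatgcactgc
KO only, intergenic, nearest coding gene Foxd3, chr4:99532823-99532923: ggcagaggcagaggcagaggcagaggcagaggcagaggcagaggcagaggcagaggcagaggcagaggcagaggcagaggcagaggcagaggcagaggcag
KO only, intron of Gm32624, chr16:86820919-86821019: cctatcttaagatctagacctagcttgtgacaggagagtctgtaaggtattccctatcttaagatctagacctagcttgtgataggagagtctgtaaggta
KO only, 1136 bp from the start of Catsper3, chr13:55783382-55783482: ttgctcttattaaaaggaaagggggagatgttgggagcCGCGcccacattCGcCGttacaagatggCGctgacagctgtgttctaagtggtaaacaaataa

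The kept summits 91533 bp from the start of Axin2, in Filip1l and 109765 bp from Gm8797 lay in unmasked DNA rich in CpG, with 34, 49 and 42 CpGs in the 501 bp around the summit. The summit near Axin2 had −log10 q of 60.8 in WT and 98.0 in KO cells, 11 bp apart. The Filip1l summit stood at 52.9 and 65.6. The summit near Gm8797 stood at 49.99 and 126, the highest value of either list. All 3 also had an H3K27me3 summit within 1 kb in both genotypes. The Gm10801 summit, at 44.0 in WT and 70.4 in KO cells, lay in DNA that the reference soft-masks as repeat. The remaining one of the 5, 3088 bp from the start of the mucin gene Muc3, had 55.1 in WT and 71.4 in KO cells. All 5 were thus higher in the KO list, and −log10 q also grows with depth.

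The WT-only summit at Hnrnpab, which encodes an RNA-binding protein, lay in a CpG island with 71 CpGs in 501 bp and had −log10 q of 8.04. The nearest KO summit was 29182 bp away. Among WT-only summits with no KO summit within 10 kb, the strongest lay in an intron of Fhit. It had −log10 q of 14.2, with the nearest KO summit 120871 bp away. It sat in a tandem array in which 94.4% of bases equalled the base 180 bp further on. The others of the 5 strongest WT-only summits that far from the KO list lay in Arhgap21 (12.3), Cntnap5b (9.88), Cd163l1 (9.45) and Gm4409 (9.14). Of KO-only summits with no WT summit within 10 kb, the 5 strongest are named as well. The first lay in an intron of Kctd16, a gene for an auxiliary subunit of GABA-B receptors, on chromosome 18. It stood at 20.5, with the nearest WT summit 57004 bp away. The others were 348899 bp from the start of Samd9l (17.4), in Gm32624 (16.3), 123426 bp from Foxd3 (11.2) and 11254 bp from the major urinary protein gene Mup11 (9.65). The KO-only summit near Foxd3 was a simple repeat of 6 bp whose 24-base words occur a median of 27418 times on the autosomes. Around the one in Gm32624, 50.3% of bases equalled the base 52 bp further on. The summit upstream of Catsper3 lay in soft-masked DNA with 1598 genomic copies, and a WT summit of 2.64 lay 1018 bp away, just beyond the match limit.

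About 1 summit in 3 met a partner in the other genotype, and the share rose with strength. Of WT summits, 43740 were kept (30.9%, 30.6 to 31.1) and 97917 were WT only. Of KO summits, 43903 were kept (33.4%, 33.1 to 33.7) and 87527 were KO only. Below −log10 q of 2, 23.4% of WT and 21.8% of KO summits were kept. Of the strong WT summits 71.5% (70.3 to 72.7) were kept, and of the strong KO summits 75.5% (74.5 to 76.6). At 10 or more, 84.6% of 319 WT and 87.2% of 289 KO summits were kept. A strong partner was found for 27.6% of strong WT and 25.4% of strong KO summits. Of the 1649 strong WT-only summits, 62.0% had a KO summit within 5 kb, against 41.7% of all WT-only summits. Of the 1527 strong KO-only summits 70.3% had a WT summit that near, against 44.5% of all KO-only summits. More than 10 kb from any summit of the other list lay 386 strong WT-only (23.4%) and 265 strong KO-only summits (17.4%). Over all WT-only and KO-only summits these shares were 37.5% and 37.9%.

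**Figure D1:**
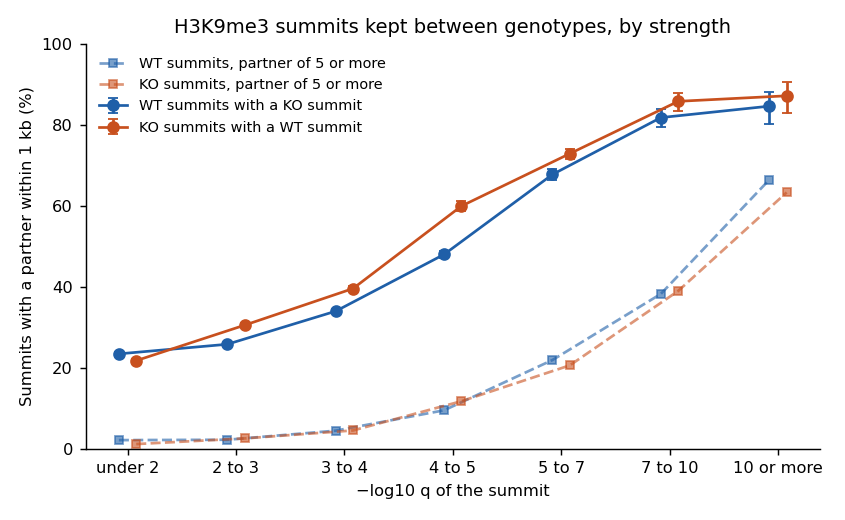
Share of H3K9me3 summits (%) with a summit of the other genotype within 1 kb, against −log10 q of the summit; bars are 95% Wilson intervals and dashed lines count only partners of 5 or more. The kept share rises from 23.4% (WT) and 21.8% (KO) below 2 to 84.6% and 87.2% at 10 or more.

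Dense stretches of summits nearly always had a counterpart, which their length favours. When summits of one list at most 3 kb apart were merged, 631 WT and 547 KO regions held 8 or more summits, and 96.5% and 99.3% of them had a region of the other genotype within 1 kb. In all, 22 WT and 4 KO regions of this size had none. Such regions spanned a median of 11626 bp in WT and 11569 bp in KO cells, so that a summit of the other list falls near them more readily than near single summits, which were kept at 18.4% and 18.7%. The region with the most WT summits, chr9:3003501-3037994, held 34 WT and 26 KO summits over the genes Gm11168, Gm10715, Gm10717, Gm10718, Gm10719, Gm10720, Gm10721 and Gm17535. The second WT region lay at 1700026F02Rik on chr8 (27 WT, 14 KO) and the third in Apbb2 on chr5 (26 and 13). One further WT region covered Zfp809, which encodes a zinc finger repressor of retroviral DNA, and Zfp599 (23 and 17). In the KO list 2 regions held 28 summits, the one at the start of chr9 (28 KO, 34 WT) and chr4:145790431-145827250 at the zinc finger pseudogene Znf41-ps (28 KO, 14 WT). The KO region at Zfp982, chr4:147498792-147538973, held 26 against 9. The other 2 were on chr2 (25 KO, 22 WT) and at Gm5165 on chr17 (25 KO, 20 WT).

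WT-only and KO-only summits lay on different DNA. Of WT-only summits, 20.4% (20.2 to 20.7) were within 2 kb of an annotated transcript start, against 9.21% (9.02 to 9.40) of KO-only and 10.7% of kept WT summits. Such windows cover 11.4% of autosomal bases. A soft-masked base lay under 31.3% of WT-only, 46.7% of KO-only and 56.9% of kept WT summits, against 33.5% of autosomal bases. Sequence with at least 10 genomic copies lay under 12.3%, 26.3% and 39.4%. Within the strong class the order was the same. The promoter share was 21.1% for WT only and 8.71% for KO only, and the soft-masked share was 42.1% and 66.5%.

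The number of genomic copies moved with the genotype ratio, meaning KO summits divided by WT summits, which was 0.928 over the autosomes. In single-copy sequence 103040 WT and 78937 KO summits gave 0.766. At 1000 to 10000 copies the ratio was 1.56 (9740 and 15209), and at 10000 copies or more it was 1.73 (1812 and 3139). Among strong summits the corresponding ratios were 0.699, 1.70 and 1.59. The most often kept summits were those with 100 to 1000 copies, at 66.1% in WT and 54.0% in KO cells. Base composition gave a wider spread. Where GC content over 501 bp was under 38% there were 11478 WT and 22298 KO summits, a ratio of 1.94, and at 60% or more there were 4453 and 1450, a ratio of 0.326. For strong summits these ratios were 2.66 and 0.549. Windows with 40 or more CpGs held 2106 WT and 378 KO summits, a ratio of 0.179, and only 13.5% of those WT summits were kept. GC content also affects amplification and sequencing of a library, and the part of this in the difference was not tested.

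Gene starts had many more WT than KO summits. Of the 20807 autosomal coding genes, 6836 (32.9%) had a WT but no KO summit within 2 kb of the start, 1429 (6.87%) had a KO summit only, 1587 (7.63%) had both and 10955 had neither. Of these genes, 177 WT-only, 17 KO-only and 162 shared starts had a strong summit. In the first 500 bp downstream of the start there were 111.5 WT summits per 1000 genes, against 38.2 in the bin that ended 5 kb downstream. KO summits had no such rise, with 23.5 per 1000 genes in the first bin and 21.7 in the last. WT summits of the WT-only class supplied 99.1 of the 111.5.

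**Figure D2:**
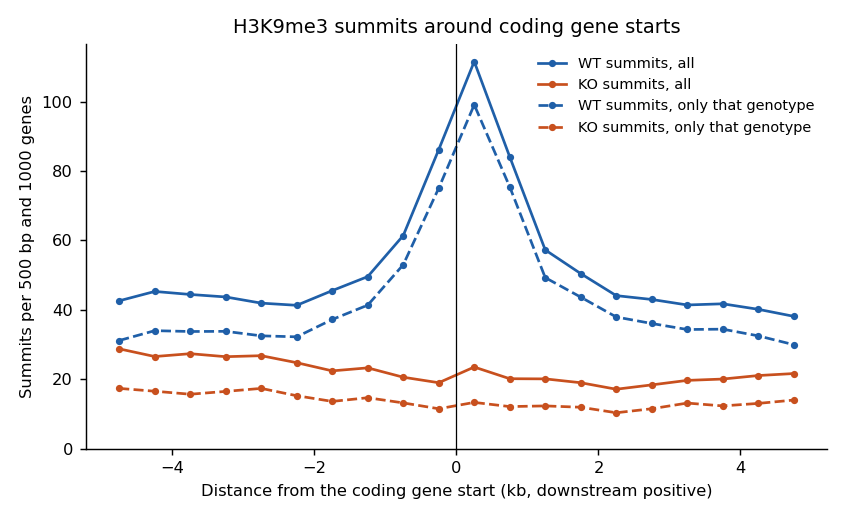
H3K9me3 summits per 500-bp bin and 1000 coding genes (vertical axis) against distance from the gene start in kb (horizontal axis), for all summits (solid) and summits of that genotype only (dashed). WT summits reach 111.5 per 1000 genes just downstream of the start, and KO summits stay between 17.2 and 28.8.

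The starts with a WT summit only were CpG-rich and often had a Brg1 summit. They held a median of 35 CpGs in 501 bp, against 20 at KO-only, 31 at shared and 13 at empty starts. The share of genes with a WT summit only rose from 10.2% of 3856 genes with at most 4 CpGs to 46.4% of 6102 genes with 40 or more. The KO-only share lay between 5.33% and 8.25% over the CpG classes, while the share with both rose from 3.22% to 9.46%. Since the KO-only class leaves out starts with a WT summit, its narrow range does not describe all KO summits. Brg1 summits also rose with CpG content, from 8.87% of starts with at most 4 CpGs to 65.3% of those with 40 or more. CpG content and the other lists were not separated here. Of the 8620 genes with a WT Brg1 summit at the start, 49.4% had a WT H3K9me3 summit only, against 21.1% of the 12187 without one. A KO summit only was found at 5.16% and 8.07%, and summits of both genotypes at 9.72% and 6.15%. The KO-only class leaves out every start with a WT summit. Its lower share therefore does not show that KO summits avoid Brg1 starts. Rad21, a cohesin subunit, showed 46.8% and 17.5% for WT only, and Ctcf showed 46.3% and 22.3%. Arid1a itself showed 49.9% and 22.8%. H3K27me3, the Polycomb mark, showed no such rise, at 29.5% with and 33.9% without a WT summit. Away from promoters, 15.9% of WT-only summits had a WT Rad21 summit within 1 kb, against 9.57% of kept WT and 5.02% of KO-only summits. Summits of different antibodies at the same open sites can also come from background in the chromatin, and the part of this was not tested. No Brg1, Rad21, Ctcf or Arid1a list of KO cells was analysed here.

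The 12 WT-only starts with the highest values began with Gm13289 (8.53), Tab2 (8.42), Zfp983 (8.21), Hnrnpab (8.04) and Cdh1 (7.81). Tab2 encodes an adaptor of the kinase Tak1 in cytokine signalling. Cdh1 (chr8:106603351-106670246, plus strand) encodes E-cadherin, the adhesion protein of epithelia, and its body with 2 kb on each side held 14 WT and 4 KO summits. Myh9 (chr15:77760587-77842175, minus strand), the heavy chain of nonmuscle myosin IIA, had 7.05 at the start and 19 WT summits against 1 KO summit over the body. Resf1, a regulator of endogenous retroviruses, had 7.30 at the start and 12 against 6 summits. The others were Gm13276 (7.72), Tnfaip6 (7.30), Kcnn1 (7.21), Rbm22 (7.04) and Csf2ra (6.95). Gm13289 and Gm13276 are neighbours on chr4, and each summit lay in sequence with 14 genomic copies. Rbm22 had a KO summit 2004 bp from its start, just outside the window. The KO summit nearest to the WT summit stood at 4.46 for Resf1, 1804 bp away, and at 4.53 for Csf2ra, 3194 bp away.

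Among the 12 KO-only starts with the highest values, a WT summit often lay just outside the window. Maea, a ubiquitin ligase subunit gene, had the highest KO value (8.93), but a WT summit of 8.92 lay 402 bp from the KO summit, 2110 bp from the start. Trmt10c, Gstt4, Catsper3 and Zfp433 had WT summits between 2154 and 3226 bp from the start. At Trmt10c the WT summit nearest to the KO summit stood at 6.94 against 7.54. It was weaker at Gstt4 (3.08 against 7.08), Catsper3 (2.64 against 6.95) and Zfp433 (3.33 against 5.97). The WT summit nearest to the start of 2610042L04Rik was 20956 bp away and that of Gm17409 was 10596 bp away, with KO values of 6.91 and 6.11. Zfp993 had 3 KO summits at the start, the highest at 5.74, and 29 KO against 18 WT summits over its body. Values were also high at 1700109H08Rik (8.25), Pnmal2 (6.61) and Anapc4 (6.02).

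Of the 12 shared starts with the highest values, 11 were at Gm genes, 9 of them at the start of chr9, from Gm10722 at chr9:3000922-3002330 to Gm10715 at chr9:3036877-3038316. Gm10715 stood at 25.9 in WT and 58.6 in KO cells, and Gm21738 on chr14 stood at 25.6 and 29.4. Sfi1 (chr11:3131850-3193463, minus strand), which encodes a centriole protein, was the exception, with 11.9 in WT and 21.9 in KO cells. Its body held 2 WT and 19 KO summits. The 9 starts on chr9 and that of Gm21738 also had WT Arid1a and WT Brg1 summits, and Gm10801 had a Brg1 summit. Sfi1 had neither, and no H3K27me3 summit lay at any of the 12. Of all 1587 shared starts, 47.6% had a WT Arid1a and 52.8% a WT Brg1 summit. Summits at most of the 12 starts were thus not particular to the H3K9me3 lists. How far the 12 genes share reads was not tested.

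Over megabase windows the genotype ratio followed gene density. In 276 windows without a coding gene start there were 6136 WT and 11381 KO summits, a ratio of 1.85, and KO summits outnumbered WT summits in 266 of them (96.4%). In the 50 windows with 41 or more starts there were 5204 and 2703, a ratio of 0.519, and 11 windows had more KO summits. The fall was not limited to promoters, since summits over 2 kb from any start gave 1.87 and 0.661. Strong summits gave a shallower slope, from 1.53 to 0.858. H3K27me3 summits of the same cells gave 1.02 and 0.803, with the lowest ratio, 0.757, in windows with 3 to 5 starts. Of 2331 windows with at least 20 H3K9me3 summits, 248 had at most 1 KO summit for 2 WT summits, and 369 had at least 2 KO summits for 1 WT summit. The first kind held a median of 19 coding starts at 47.5% GC and the second a median of 1 at 38.1% GC.

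**Figure D3:**
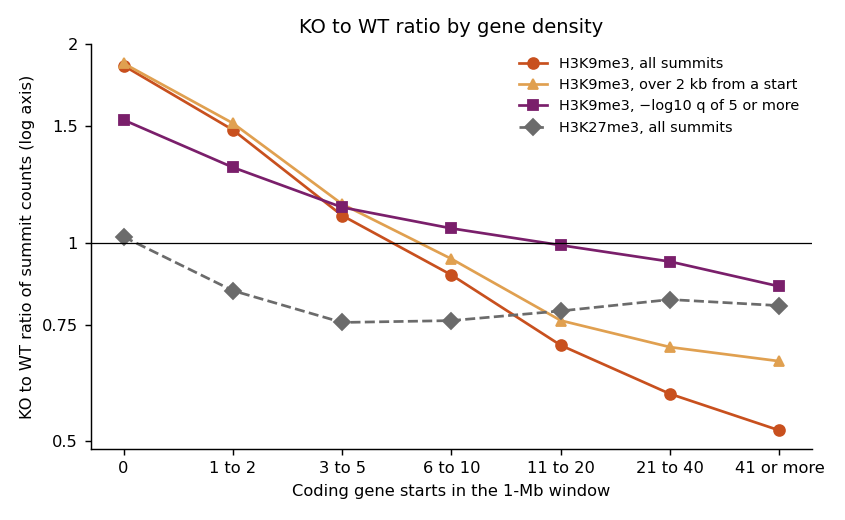
KO to WT ratio of summit counts (log axis) in 1-Mb windows grouped by the number of coding gene starts, for all, distal and strong H3K9me3 summits and for H3K27me3. The ratio for all H3K9me3 summits falls from 1.85 to 0.519, and that for strong summits from 1.53 to 0.858.

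The 5 windows with the largest WT excess held 14 to 65 coding starts each. The window at 80 to 81 Mb of chr10 held 195 WT and 26 KO summits, with 187 WT Rad21 summits and 53 coding starts that include Stk11, Dot1l and Mbd3. At 167 to 168 Mb of chr2, around Snai1, Cebpb and Ptpn1, there were 194 and 48. At 99 to 100 Mb of chr15, which holds the SWI/SNF gene Smarcd1, there were 209 and 63. At 69 to 70 Mb of chr11, with the tumour suppressor Trp53, there were 179 and 34, and at 21 to 22 Mb of chr9, with Smarca4 and Keap1, there were 180 and 40. Strong summits were few in these 5 windows, from 3 to 15 per window in the WT list and from 0 to 5 in the KO list.

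Of the 5 windows with the largest KO excess, 4 lay in zinc finger clusters. The 3 adjoining windows of chr4 from 145 to 148 Mb held 135, 151 and 222 WT summits against 232, 289 and 367 KO summits. Their strong summits numbered 16, 19 and 34 in WT and 51, 60 and 84 in KO cells. The genes there include Zfp990, Zfp980, Zfp986, Zfp987, Zfp600, Zfp992, Zfp981, Zfp993, Zfp989, Zfp991, Zfp985, Zfp979, Zfp984 and Rex2. At 22 to 23 Mb of chr17, among Zfp943, Zfp947, Zfp758 and Vmn2r111, there were 87 WT and 176 KO summits. At 20 to 21 Mb of chr12, where Asap2 is the coding gene, there were 96 and 198. The H3K27me3 lists had at most 13 summits in any of these 5 windows. The strongest KO summit of each window was matched in WT cells within 295 bp, so these clusters were marked in both genotypes. In the window at 146 to 147 Mb it stood at 16.2 in KO and 8.66 in WT cells.

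The windows highest in both genotypes were the chr4 window at 147 to 148 Mb (222 and 367), then 82 to 83 Mb of chr10 with Zfp873 and Zfp938 (232 and 209) and 97 to 98 Mb of chr15 with the imprinted transporter gene Slc38a4 (243 and 173). Whole chromosomes differed as well. The ratio ran from 0.649 on chr11 to 1.22 on chr13 and was below 1 on 11 of 19. Across the 19 chromosomes it had a Pearson r of -0.73 with coding genes per Mb and -0.80 with GC content, and of -0.77 with the same ratio for H3K27me3, whose own ratio was below 1 on all 19. For strong summits the ratio was below 1 on 5 of 19, and its r with coding genes per Mb was -0.38. All chromosomes share the same libraries, and gene density and GC content rise together. Summit density itself ranged from 18.9 to 98.3 WT summits per Mb and from 22.6 to 95.3 KO summits per Mb. Chr14 was lowest and chr10 highest in both, and DNA copy number in the line was not tested. In the first 5 Mb of the assemblies, nearest to the centromeres, strong KO summits outnumbered strong WT summits (220 and 173), and these bases, 1.57% of the total, held 3.52% of strong KO and 2.99% of strong WT summits. The strong ratio was 1.27 there and 1.40 at 10 to 20 Mb.

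Gene classes separated in the same way. The summits counted here lie in the union of gene bodies with 2 kb on each side, so that overlapping genes share no summit. Over all coding genes there were 69334 WT and 46586 KO summits, a ratio of 0.672. Each class below is read beside that value and beside the start shares of 32.9%, 6.87% and 7.63%.

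Zinc finger genes of the Zfp, Zscan and Zkscan families had nearly equal counts in both genotypes. Their 412 members held 1943 WT and 1893 KO summits, a ratio of 0.974, and 50.7% of the WT and 52.1% of the KO summits were kept, against 22.6% and 33.0% over all coding genes. Strong summits numbered 164 in WT and 262 in KO cells. At the start, 143 members had WT only, 43 KO only and 49 both. Zfp697 held 28 summits in each genotype, Zfp991 held 26 WT and 23 KO, Zfp984 held 19 and 28 and Zfp993 held 18 and 29. Along bodies of at least 5 kb, strong summits gathered toward the 3′ end, where the exon with the zinc finger repeats lies in such genes. Of 10 equal parts of the body, the last held 17.6% of 142 strong WT and 16.4% of 232 strong KO summits, and the first held 2.82% and 3.02%. In the other coding genes the first and last parts held 13.6% and 7.08% in WT and 7.91% and 8.37% in KO cells.

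**Figure D4:**
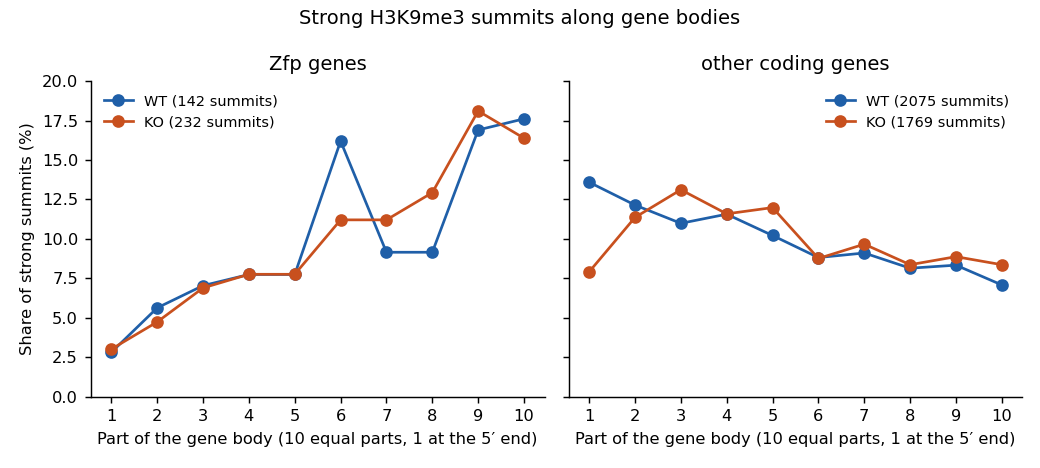
Share of strong H3K9me3 summits (%) in each of 10 equal parts of the gene body, from the 5′ end (1) to the 3′ end (10), for 385 Zfp genes and 16646 other coding genes of at least 5 kb. In Zfp genes of both genotypes the share rises from under 4% to over 16%.

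Receptor clusters, which are silent outside sensory neurons, had more KO than WT summits over their bodies. The 1128 olfactory receptor genes held 228 WT and 342 KO summits together, or 29.2 KO summits per Mb against 44.2 over all coding genes. Their starts were KO only at 64 (5.67%, below the 6.87% of all coding genes) and WT only at 39 (3.46%). Olfr56 stood apart, with 58 WT and 24 KO summits over its annotated body, chr11:48978889-49135387. The 326 vomeronasal receptor genes held 113 and 194 (1.72), with KO only at 1.84% of starts, and were led by Vmn2r7 (15 and 20) and Vmn2r35 (10 and 11). Strong summits were few and did not show this excess. They numbered 9 WT and 10 KO in olfactory and 11 WT and 7 KO in vomeronasal receptor genes. Clustered protocadherin genes, adhesion genes with a choice of alternative promoters, held 70 and 96 (1.37) over 57 genes, with 21 starts in both, 16 in KO only and 4 in WT only. Many of these starts share summits with their neighbours. Natural killer lectin receptor genes held 16 and 26, Skint genes 4 and 14 and major urinary protein genes 3 and 9.

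Cytochrome P450 and glucuronosyltransferase genes, which act in drug and steroid metabolism, lay above the ratio of all coding genes, and plasma protein and hepatocyte transcription factor genes lay below it. Cytochrome P450 genes of families 1 to 4 held 74 WT and 124 KO summits (1.68) over 75 genes, with 4 and 11 at Cyp2c66, 1 and 7 at Cyp2c54 and 2 and 6 at Cyp3a25. Cyp2d9 went the other way, with 6 and 4. UDP glucuronosyltransferase genes held 30 and 30, most of them in the shared Ugt1a locus (25 and 23 over Ugt1a10). Serpin genes held 36 and 33, and Serpinb3b held 2 and 12. Hepatocyte plasma protein genes, which encode secreted liver products, held 60 and 18, with 13 and 3 at Apoh and 6 and 0 at Trf, the transferrin gene. Hepatocyte transcription factor genes held 102 and 48 (0.471), with 15 and 2 at Rxra, 12 and 4 at Nr1i2 and 11 and 3 at Gata4. Of these 27 genes, 12 had a WT start summit only, 2 KO only and 3 both.

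Ribosomal protein genes had the lowest ratio among classes with at least 40 summits. They held 127 WT and 22 KO summits (0.173) over 81 genes, with 8 and 0 at Rpl26 and 6 and 2 at Rpl11 and Rpl38. Their starts numbered 34 WT only, 3 KO only and 8 both, and 66 of 81 had a WT Brg1 summit. Over all coding genes, 8620 of 20807 starts had one. Genes of the Ras-MAPK response and AP-1, the pathway driven by the transforming H-Ras, held 106 and 27 (0.255) over 31 genes, with 20 starts WT only, 3 both and 0 KO only. Spred2, a Ras inhibitor, held 20 and 10, the phosphatase gene Dusp1 held 11 and 2, Atf3 held 10 and 1 and Etv5 held 8 and 0. Genes of p53 and the cell cycle brakes held 83 and 36 (0.434) over 27 genes, with 18 starts WT only, 0 KO only, 0 both and 9 with neither. Mdm4, a p53 inhibitor, held 10 and 3, whereas Sesn1 held 14 and 13 and Rb1 4 and 4. Hox genes held 73 and 28 (0.384), led by Hoxc5 (14 and 3), Hoxa3 (9 and 2) and Hoxb3 (8 and 3). Histone genes held 10 and 4, MHC genes 45 and 18, keratin genes 65 and 32 and defensin genes 21 and 11. Of the keratins of liver epithelium, Krt18 held 4 and 1 and Krt8 held 2 and 7.

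**Figure D5:**
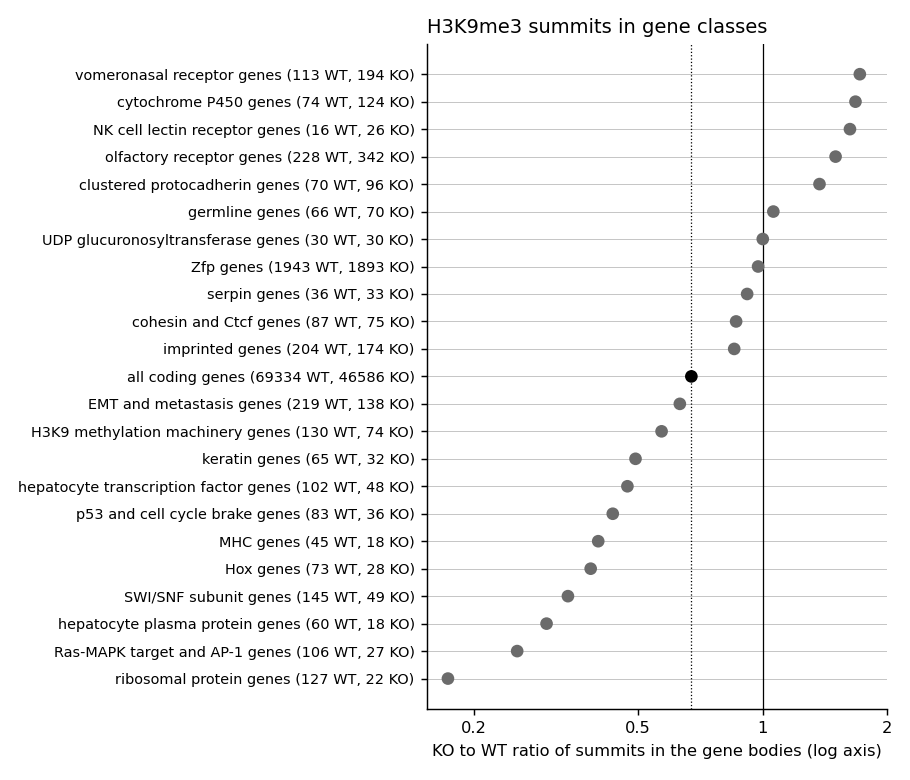
KO to WT ratio of H3K9me3 summit counts (log axis) in the gene bodies of each class with at least 40 summits in all, with the counts beside the names; the dotted line marks all coding genes at 0.672 and the solid line equal counts. Receptor, cytochrome P450 and protocadherin genes lie above 1, Zfp genes at 0.974, and ribosomal protein genes lowest at 0.173.

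Imprinted genes, in which H3K9me3 marks the silent allele of control regions, are textbook carriers of the mark. Of 40 measured members of 46 listed, 11 had a start summit in both genotypes (27.5%), 7 in WT only and 1 in KO only, which was Sfmbt2. H3K27me3 summits lay at 15 of the 40 starts in WT and 13 in KO cells. Over all 20807 coding gene starts these counts were 5019 and 4276. Summits at imprinted starts were thus not confined to the H3K9me3 lists. How far both marks share the same starts was not tested. Chosen after their values were seen, the 11 genes with shared starts are named here. Nnat had 12.6 in WT and 7.94 in KO cells, Nap1l5 6.43 and 3.80, Zrsr1 6.15 and 3.21, Sgce and Peg10, which share a start region, 4.72 and 3.11, and Slc38a4 4.13 and 2.51. Mkrn3 had 3.31 and 2.47, Peg3 and Usp29, which also share one, 2.41 and 3.11, Snurf 2.64 and 3.11 and Gab1 2.07 and 1.88. Over the bodies the class held 204 and 174 summits (0.853), but 18 strong WT against 4 strong KO summits. Germline genes, silenced in somatic cells, had 7 of 29 members with both (24.1%): Mael, Sycp1, Tuba3a, Tuba3b, Smc1b, Dazl and Tdrd1, again named after their values were seen. Tdrd1, of the piRNA pathway, had 3.90 and 5.39, and Dazl, a germ cell RNA-binding protein gene, 2.07 and 4.53. Tex19.1, a placental and germ cell gene picked the same way, had 6.34 in WT cells and no KO summit. Germline bodies held 66 and 70 summits (1.06), with 13 and 11 at Sycp1, 5 and 10 at Mov10l1 and 2 and 11 at Smc1b.

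The genes of the chromatin machinery mostly had fewer KO summits. SWI/SNF subunit genes held 145 WT and 49 KO summits (0.338) over 28 genes, with 14 starts WT only, 2 KO only and 6 both. Smarcc1 held 17 and 2, Arid1b 17 and 7, Arid2 12 and 4 and Smarca2 12 and 4. Arid1a itself (chr4:133679008-133756769, minus strand), knocked out by the loss of 1 exon, had a start summit of 3.63 in WT cells only and held 8 and 1 over its body. Smarca4, which encodes Brg1, had 5.09 at the start in WT cells only and held 11 and 1. Cohesin and Ctcf genes held 87 and 75 (0.862), of which Stag1 contributed 31 and 32, and Pds5a held 11 and 7. Rad21 had no start summit in either genotype, and Ctcf had 4.03 at the start in WT cells only, with 3 WT and 5 KO summits over its body. Genes for writing and reading H3K9 methylation held 130 and 74 (0.569), with 17 and 3 at the methyltransferase gene Ehmt1 and 13 and 16 at Atf7ip, a partner of Setdb1.

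Genes of epithelial-mesenchymal transition and metastasis held 219 and 138 summits (0.630), near the value of all coding genes, with 17 starts WT only, 4 KO only and 6 both among 35. Cdh1 was given above. Zeb1, a repressor of Cdh1, held 33 and 34, Cdh2 14 and 13, Zeb2 14 and 12 and Tgfbr2 14 and 9. Gsc, the homeobox gene that the study followed, had 0 summits of either genotype over its body. Pmp22, a membrane protein gene, had a single KO summit of 2.25 at the start and held 2 WT and 1 KO summits over its body. Among other genes of the study, Atg10 had WT only at the start (2.64), Six2 KO only (3.11) and Rnf125 both (2.64 and 3.11), and Cdh5 had no start summit, with 5 and 8 over its body. The start values of Pmp22, Atg10, Six2 and Rnf125 lie between 2.25 and 3.11, below the strong class. Values are heavily tied, and 74.2% of the KO summits and 60.4% of the WT summits share the 10 commonest values of their list.

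Noncoding genes added to the picture. Bodies of long intergenic noncoding RNA genes held 7450 WT and 7567 KO summits (1.02), unprocessed pseudogenes 488 and 679 (1.39) and processed pseudogenes 670 and 722 (1.08). Coding gene bodies without flanks held 66790 and 46112 (0.690), and antisense genes, which overlap coding genes, 3206 and 2340 (0.730).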

How the data were processed

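The study profiled AB17 cells by ChIP-seq, and 8 lists of summits were used, 1 library each (WT and KO H3K9me3 and H3K27me3, and WT Arid1a, Brg1, Ctcf and Rad21). The 2 input samples had no list among the files used here. Per the submitters' processing notes, Bowtie2, SAMtools, Picard and MACS2 were used with mm10, and versions are not given in the sources used here. The authors deposited 1 line per MACS2 summit with its −log10 q-value, and many low values are tied. Each list belongs to 1 library, its values start at −log10 q of 1.31 in both H3K9me3 lists, and narrow summits split broad H3K9me3 domains. Read depth is unknown, so the precision of a single summit cannot be given.

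Summits on autosomes were matched to the nearest summit of the other list (at most 1000 bp). Promoters, starts (2 kb) and gene bodies came from GENCODE vM21, and sequence, soft-masking, GC and CpG (250 bp on each side) from GRCm38. Genomic copies are the median number of occurrences, on both strands of the autosomes, of 5 words of 24 bases around the summit. The matching code was tested on simulated data. Python 3.11.15, numpy 2.4.6, pandas 2.3.3, scipy 1.17.1 and matplotlib 3.10.9 were used. With 1 library a genotype no test was run, and all comparisons are counts and shares. Genes were named by rule: the 12 starts with the highest value of each class (for shared starts, by the lower value), up to 4 members with the most summits in each of 26 gene classes, the genes of the study, and the 5 strongest summits, 5 most different windows and 5 regions with the most summits of each kind. The 5 strongest WT-only and KO-only summits were taken from those with no summit of the other list within 10 kb. The genes named within a window are examples chosen after its values were seen. The members and lists were chosen with earlier results of these data known. The alternatives tried were other distances, windows and strengths, equal list sizes, merged regions, and removal of summits near those of 4 or more other lists. A few genes that the rule names are not reported here.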

Additional observations from a re-analysis of the deposited data

Results flagged for a closer look

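Summits on the sex chromosomes took no part in the autosomal comparison and are given as values. Chromosome X held 1956 WT and 3034 KO H3K9me3 summits, and chromosome Y held 222 WT and 512 KO summits. Strong summits there numbered 123 and 200 on X and 32 and 100 on Y. H3K27me3 summits on X numbered 811 in WT and 388 in KO cells. No control list was used here against which these counts could be read.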

How the results depend on the processing

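The kept shares depended on the distance that counts as a match and on the strength asked of the partner. With 500 bp the kept share was 19.8% (WT) and 21.4% (KO), and for strong summits 52.1% and 54.95%. With 5 kb it was 59.7% and 63.0%, and 89.2% and 92.7%. Strong partners alone gave 27.6% and 25.4%. Equal numbers of the strongest summits gave 31.5% and 32.0%, and merged regions 28.8% and 30.4%. Without summits near those of 4 or more of the 6 other lists the WT share was 31.3%. The KO to WT ratio of all summits, 0.928, was 0.947 for merged regions, 0.946 without summits near other lists and turned to 1.08 for strong summits. The cause was not tested.

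The promoter share of WT-only and KO-only summits was 35.7% and 20.4% with a 5-kb window, 21.1% and 8.71% for strong summits, and 23.7% and 8.53% where no summit of the other list lay within 5 kb. The soft-masked share was 42.1% and 66.5% for strong summits and 26.9% and 46.2% where none lay within 5 kb. It was 31.9% for WT-only summits without those near other lists. With strong summits alone, 255 genes had a WT summit only at the start and 61 a KO summit only. With a 5-kb window 2150 genes had a KO summit only. The ratio in Zfp bodies was 1.60 for strong summits. WT-only summits stayed above KO-only ones in promoter share, and below in soft-masked share, in every alternative listed here.

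No paired analysis was possible because each genotype had 1 library. With 1 library a side, genotype, depth and antibody efficiency cannot be told apart, and most summits lie near the lower edge of their list, with a median −log10 q of 2.64 in WT and 2.47 in KO cells.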
